A study of Mus musculus with 10 samples.

Results

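Haptoglobin (Hp) and 8 other genes of acute-phase proteins, Hpx, Saa3, Lcn2, Cp, Orm1, Serpina3n, Lrg1 and Lbp, were followed across the regions of the normal mouse heart. The 9 genes were taken by name from a list of acute-phase proteins that tissues other than the liver also make, and each was found on the array through the RefSeq accession of its probes. They were 9 of the 22911 genes named on the array. Hp was chosen by its own values on these arrays, for its difference between the right ventricle (RV) and the left ventricle (LV), so its levels are given as a description with no test. The study compared the RV, the LV and the ventricular septum of C57BL/6N mice by 1-colour microarray, with 4 RV, 3 LV and 3 septum arrays. The labels give no age, sex, treatment or genotype beyond the strain. All hearts were perfused with cold phosphate-buffered saline, frozen and powdered, so each array carried RNA from a whole piece of a region with all its cell types. Nothing in the labels says whether pieces with the same number came from one heart, and the p-values measure only the spread between these arrays.

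The acute-phase response is the change in plasma proteins that follows infection or injury. Interleukin-6, interleukin-1 and tumour necrosis factor drive it through STAT3, C/EBP and NF-kB factors, mainly in hepatocytes, and fat tissue, endothelium, macrophages and epithelia make some of the same proteins. Hp binds free haemoglobin, Hpx binds haem, Cp oxidises iron, and Lcn2 binds the siderophores with which bacteria take up iron. Saa3 is a serum amyloid A made outside the liver, Orm1 an acid glycoprotein that carries lipophilic molecules, and Serpina3n an inhibitor of serine proteases. Lrg1 is a leucine-rich glycoprotein that modifies TGF-beta signalling in vessels, and Lbp hands bacterial lipopolysaccharide to CD14.

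Levels are log2 signals with each array's 75th percentile set to 0, so a difference of 1 is a doubling, and a level says nothing about one probe against another. The 9 genes had 13 probes, 4 of them for Cp and 2 for Lcn2, and each gene is given by its brightest probe unless stated. A probe entered the test where all arrays of 1 or more regions read it well above background, which held for 6 of the 9 genes and for 14645 genes in all. Hp, Lcn2, Cp, Serpina3n, Lrg1 and Lbp were well above background on all 10 arrays. Hpx, Saa3 and Orm1 were too dim in every region to be tested. Between 53.7% and 64.0% of the probe spots of an array were well above background, and no spot was saturated. The arrays lay on 2 slides, and both held all 3 regions. The hepatocyte genes Apoa1, Apob and F2 were well above background on no array, and Alb and Ttr were too dim to be tested. The other 5 of the 10 hepatocyte genes were tested. Of these, 1 was called higher in RV than in LV, beside 3.86% of all tested probes called in either direction. It was Ahsg, which is also on the list of negative acute-phase genes below.

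**Figure D1:**
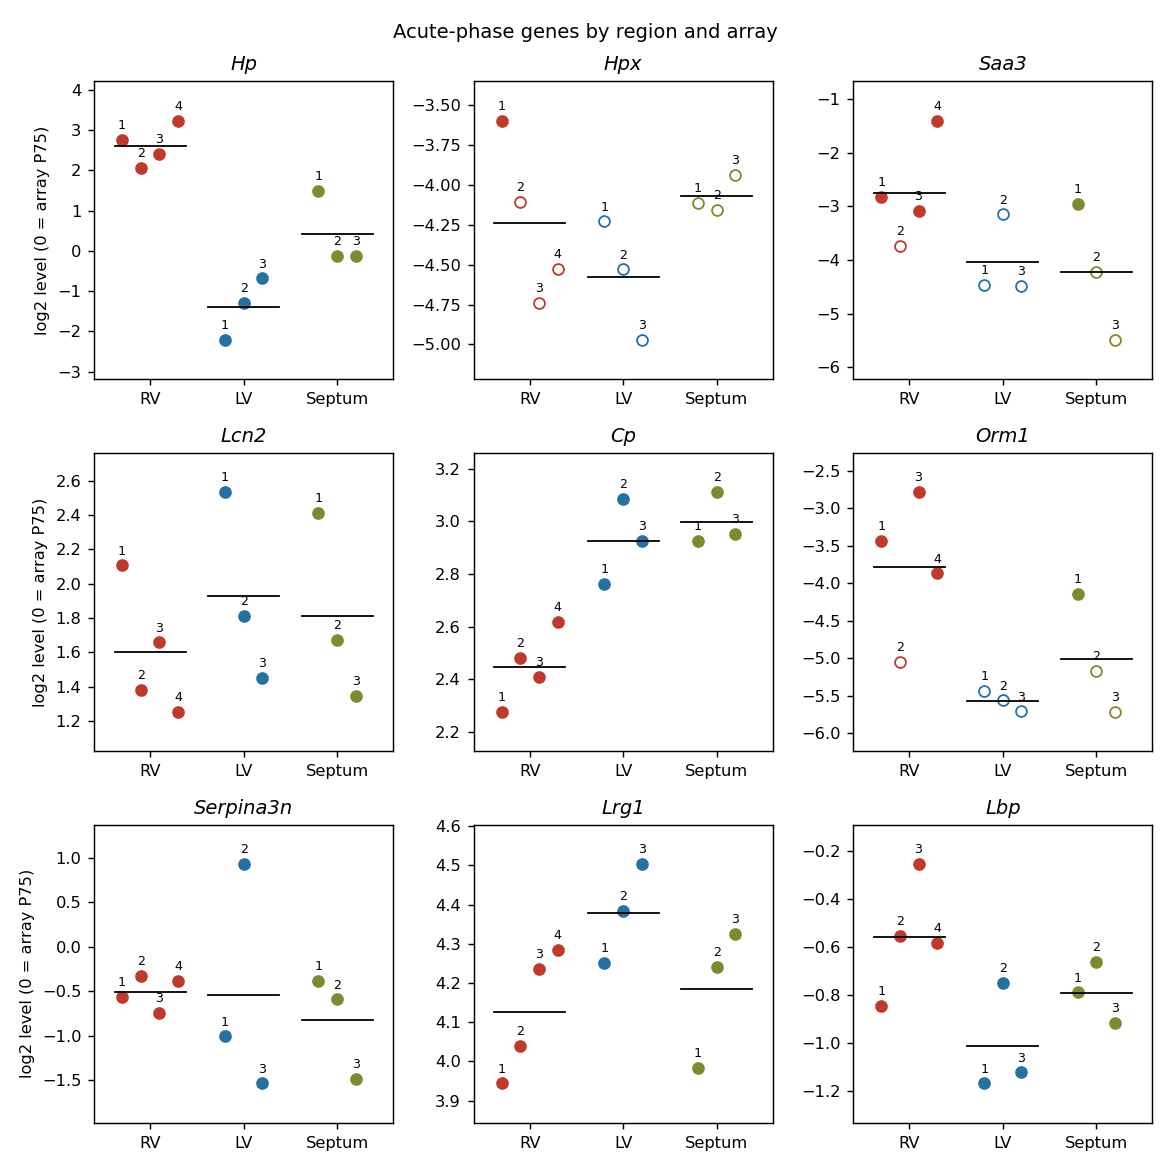
Log2 level of each of the 9 genes on each array (vertical axis, 0 is the array's 75th percentile, each panel on its own scale) by region (horizontal axis). Numbers are the replicate numbers, bars are group means, and open circles mark arrays on which the probe was not well above background. Hp separated all 3 regions, Cp separated RV from the other regions, and Hpx, Saa3 and Orm1 were mostly open.

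Hp was high in RV, intermediate in the septum and low in LV. Its level in RV was 2.75, 2.06, 2.40 and 3.24 on the arrays numbered 1 to 4. The septum gave 1.49, -0.12 and -0.13, and LV gave -2.21, -1.30 and -0.68. Every RV array lay above every septum array, and every septum array lay above every LV array. Of all tested probes, 19.1% likewise did not overlap between RV and LV, 13.7% between RV and septum and 7% between septum and LV. Because Hp was chosen for its RV to LV difference, its separation there carries no weight. The means were 2.61 ± 0.50 (SD, n = 4) in RV, 0.41 ± 0.93 (SD, n = 3) in the septum and -1.40 ± 0.77 (SD, n = 3) in LV. RV exceeded LV by 4.01 on the log2 scale, a 16.1-fold ratio of signals, and exceeded the septum by 2.20, a 4.60-fold ratio. The septum exceeded LV by 1.81, a 3.50-fold ratio. Within the slides the RV to LV difference of Hp was 4.16 and 3.50. The septum to LV difference of Hp was 2.44 on the first slide and 0.55 on the second, and without the septum array numbered 1, the highest of the septum, it was 1.27. Within the slides RV exceeded the septum by 1.72 and 2.96.

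The 5 genes whose pattern over the 10 arrays was most like that of Hp were Cidec, Cfd, Car3, Cyp2e1 and Retn. Likeness was the root mean square difference between the log2 levels of a pair of genes after each was centred on its own mean, among 13633 genes well above background on all arrays. It was 0.15 for Cidec, a lipid droplet protein, 0.39 for Cfd, the complement protease adipsin, and 0.45 for Car3, a carbonic anhydrase. Cyp2e1, a cytochrome P450, stood at 0.46 and Retn, the hormone resistin, at 0.52. The level of Hp itself varied by 1.78 around its mean, and the median over all genes compared was 1.81. Cidec had means of 2.06 ± 0.41 (SD, n = 4) in RV, -0.13 ± 0.87 (SD, n = 3) in the septum and -2.18 ± 0.78 (SD, n = 3) in LV, the same order as Hp. These likenesses are descriptions over arrays that share regions and slides.

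Some marker genes of white fat had the same order of regions as Hp. The mean level of the 12 tested white adipocyte genes, a list that holds Cidec, Car3 and Retn and so is not independent of the likenesses above, was between 2.29 and 2.54 in RV, between 1.36 and 1.92 in the septum and between 0.45 and 1.07 in LV. Of these 12 genes, 5 were called higher in RV than in LV, beside 3.86% of all tested probes called in either direction. The median difference of the list was nevertheless -0.01. The septum array numbered 1 had the highest Hp and the highest adipocyte level of its region, and the LV array numbered 1 had the lowest of both over all arrays. Of 8 listed brown adipocyte genes, Ucp1 was well above background on no array, and 6 were tested. The mean of these 6 was between 3.75 and 3.90 in RV, between 3.85 and 3.93 in the septum and between 3.58 and 3.93 in LV. Of the 6, 0 were called in any pair. Between RV and septum 3 of the 12 white adipocyte genes were called, all higher in RV, beside 2.08% of all tested probes called. Of 13 mesothelial genes, 1 was called higher in RV than in LV and 11 were called above the septum, beside the same 3.86% and 2.08%. The mean of this list lay between -0.75 and 0.70 in RV, between -2.01 and -1.17 in LV and between -3.63 and -1.93 in the septum. Their order, with LV above the septum on average, was not that of Hp. On the septum array numbered 3 the list mean of -3.63 was below -3.53, the lowest level of a probe well above background there. Some mesothelial genes were thus dim in the septum and entered the test through a region where they were brighter. Their count against the septum is therefore given with no weight. The macrophage list ran between 1.64 and 1.85 in RV, between 1.17 and 1.66 in LV and between 1.11 and 1.70 in the septum, with 0 of 12 genes called in any pair. The part of these cell types in the Hp levels was not tested, and in pieces of tissue fewer cells of a type and less RNA per cell cannot be told apart.

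**Figure D2:**
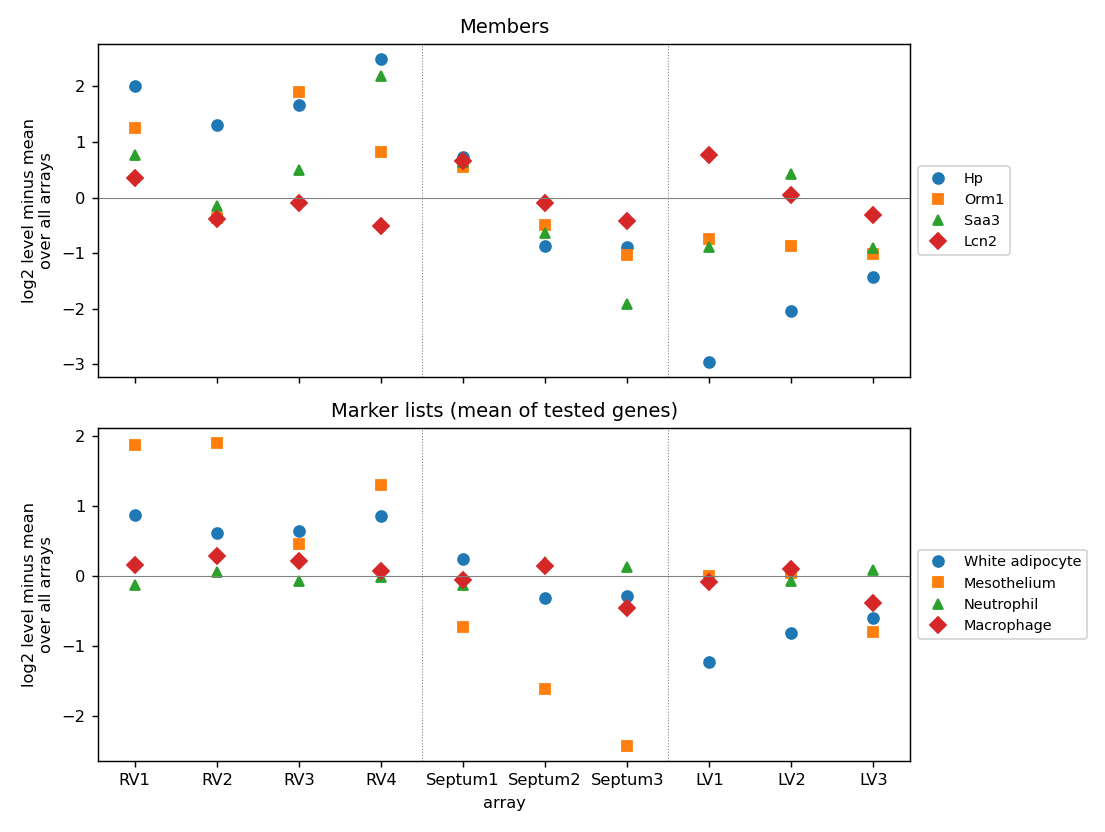
Log2 level minus its mean over all 10 arrays (vertical axis) of Hp, Orm1, Saa3 and Lcn2 (top) and of the mean of 4 lists of cell type markers (bottom), for each array (horizontal axis, dotted lines part the regions). Hp and the white adipocyte list fell from RV through the septum to LV, while Lcn2 was highest on the arrays numbered 1 in every region.

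Among the 5 other tested members, 1 was called between RV and LV at an adjusted p below 0.05, against 3.86% of all tested probes called in that comparison. The member was Cp, which was lower in RV. Of all tested probes, 1.55% were called lower in RV than in LV. Between RV and septum 1 of the 5 was again called, with 2.08% of all probes called and 0.873% called lower in RV, and it was Cp again. Between septum and LV none of the 5 was called. Of all tested probes, 0% were called by limma, with 862 at an unadjusted p below 0.05. The alternative by analysis of variance and Tukey's HSD called 167. There only the overall p of a probe was adjusted over all tested probes, and the p of the pair was not. The 167 calls are thus not on the same footing as those of limma. Both comparisons of RV use the same RV arrays. The median RV to LV difference of the 5 members was -0.25, beside -0.05 over all tested genes, and the median RV to septum difference was -0.06, beside -0.04. With so few members these counts describe single genes and not the group.

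**Figure D3:**
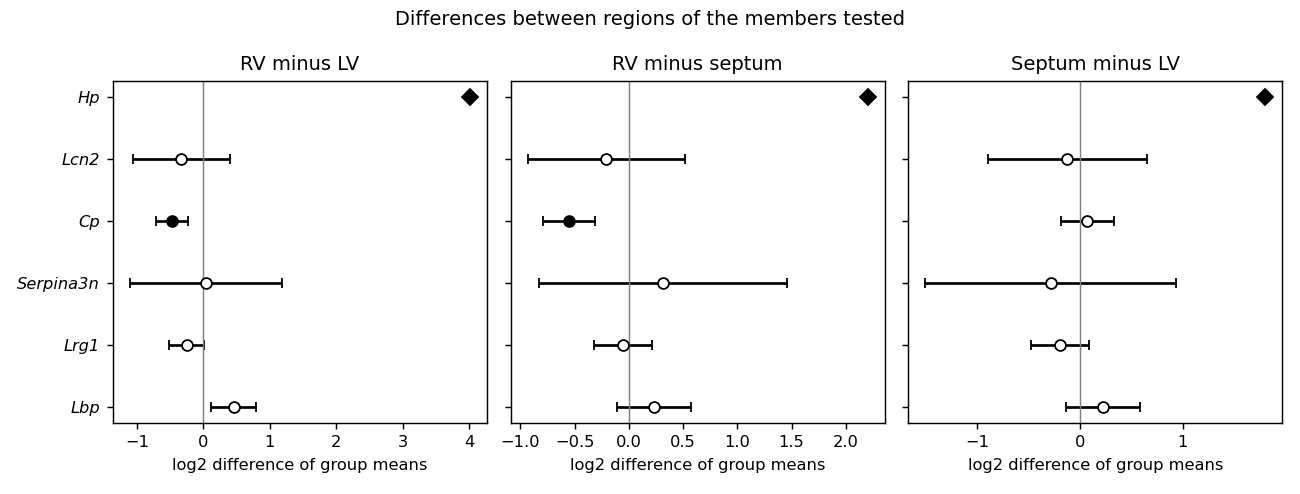
Log2 difference of group means (horizontal axis) for each tested gene (rows) in the 3 pairs of regions, with 95% intervals from the limma fit. Filled circles passed an adjusted p of 0.05 and open circles did not, and diamonds are Hp, shown with no test or interval. Cp lay below 0 in both comparisons with RV, and the intervals of Lcn2 and Serpina3n were the widest.

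Cp, the ferroxidase ceruloplasmin, was lower in RV than in LV and septum. Its level was 2.28, 2.48, 2.41 and 2.62 in RV, 2.76, 3.09 and 2.92 in LV, and 2.93, 3.11 and 2.95 in the septum. The RV arrays did not overlap those of either region, while LV and septum overlapped. Groups did not overlap for 19.1% of all tested probes between RV and LV, for 13.7% between RV and septum and for 7% between septum and LV. RV was lower than LV by a difference of -0.48 (SE 0.11, adjusted p = 0.0427), a 1.39-fold ratio. RV was lower than the septum by a difference of -0.55 (SE 0.11, adjusted p = 0.0366), a 1.46-fold ratio. Septum and LV differed by 0.07, with a 95% interval from -0.19 to 0.33.

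The 4 probes of Cp gave the same direction. RV to LV differences were -0.45 (SE 0.08, adjusted p = 0.0205), -0.36 (SE 0.09, adjusted p = 0.0688) and -0.48 (SE 0.07, adjusted p = 0.00676) on the other 3 probes, brightest first. RV to septum differences on these 3 probes were -0.48 (adjusted p = 0.0244), -0.46 (adjusted p = 0.0425) and -0.54 (adjusted p = 0.00625). The dimmest probe had the tightest groups: the RV mean was -0.70 ± 0.06 (SD, n = 4), the LV mean was -0.22 ± 0.02 (SD, n = 3), and the septum mean was -0.16 ± 0.06 (SD, n = 3). No RV array overlapped an LV or septum array on any of the 4 probes. The call of the brightest probe was not stable: between RV and LV it was lost in all 10 fits that left out 1 array, and between RV and septum in 8 of the 10. The dimmest probe was called in all 10 of these fits in both comparisons, and it lost its call only with no filter on dim probes and within the second slide, among 22 alternatives. The sign of the difference held in all 22 alternatives for each probe. Probes of one gene share its RNA and are not replicates. The mean of the 10 cardiomyocyte genes was between 8.30 and 8.42 in RV. It was between 8.44 and 8.61 in LV and between 8.37 and 8.57 in the septum. In each comparison 1 of the 10 was called lower in RV, beside 1.55% of all tested probes against LV and 0.873% against the septum. The part of cardiomyocyte RNA in the Cp values was not tested.

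**Figure D4:**
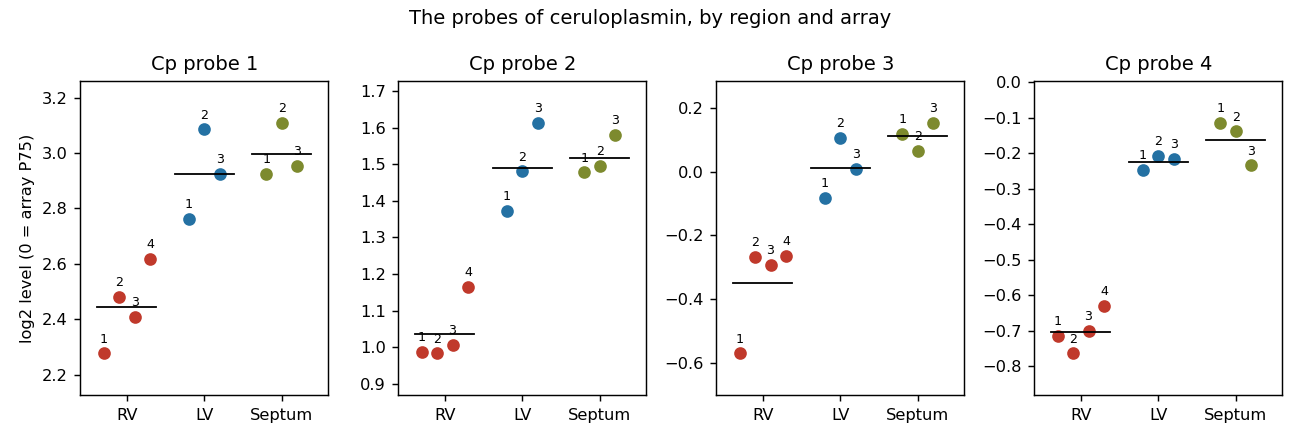
Log2 level of the 4 probes of Cp, brightest first (vertical axis, 0 is the array's 75th percentile, each panel on its own scale), by region (horizontal axis). Numbers are replicate numbers and bars group means, and on each probe the 4 RV arrays lay below the 3 LV and 3 septum arrays.

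Among the genes nearest to Cp in pattern were Ntsr2, a neurotensin receptor, at 0.07 and Arfgef1, an exchange factor for ARF proteins, at 0.08, beside a median of 0.30 over all genes. Because Cp was the member called between regions, the bases before its start are shown with matches to motifs of acute-phase regulators. The letters searched on both strands were TTNNGNAA for C/EBP, TTCNNNGAA for STAT, CTGGGAAN for the interleukin-6 response element and GGGNNTTNCC for NF-kB. In 32851 RefSeq promoters of the GRCm38.p6 build, cut to the 250 bases before the start, 36.8% held the C/EBP letters, 7.02% the STAT letters, 9.04% the interleukin-6 letters and 4.11% the NF-kB letters. The interleukin-6 letters can overlap a STAT match, but no matches overlapped in the windows of these genes. Of the 9 genes, 6 had an entry in the RefSeq table, which does not list Hp, Orm1 and Lbp. Capitals mark the matches in the window before the first of 2 listed starts of Cp:
Cp, chr3:19956804-19957053, plus strand: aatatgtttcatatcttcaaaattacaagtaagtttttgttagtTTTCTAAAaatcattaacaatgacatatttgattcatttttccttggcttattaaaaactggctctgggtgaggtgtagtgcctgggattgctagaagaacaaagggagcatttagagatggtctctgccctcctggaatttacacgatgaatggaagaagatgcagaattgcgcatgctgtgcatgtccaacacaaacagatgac
The window held 1 C/EBP match, beginning 206 bases before the start, and the window before the other start of Cp held 1, beginning 70 bases before it. Neither held the letters of the other 3 motifs. A match in letters is a description and not a bound site.

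Lcn2, the siderophore-binding lipocalin of neutrophils and injured epithelia, differed more between replicate numbers than between regions. Its level was 2.11, 1.38, 1.66 and 1.26 in RV, 2.53, 1.81 and 1.45 in LV, and 2.41, 1.67 and 1.35 in the septum. The 3 arrays numbered 1 were the highest of their regions and lay above the other 7 arrays, and the regions overlapped. RV differed from LV by -0.33 (SE 0.32, adjusted p = 0.635), with a 95% interval from -1.05 to 0.39. The RV to septum difference was -0.21 (adjusted p = 0.844) and the septum to LV difference was -0.12. Over the 9 arrays numbered 1 to 3, 84.2% of the sum of squares of Lcn2 lay between replicate numbers and 4.58% between regions. The dimmer probe of Lcn2 gave 84.7% and 5.72%. The medians over all tested probes were 45.8% between numbers and 23.7% between regions.

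The neutrophil list was not higher on the arrays numbered 1. Its 7 tested genes had a mean level of -0.28, -0.22 and -0.29 on the RV, LV and septum arrays numbered 1 and between -0.23 and 0.04 on the other 7 arrays. Ngp, Ltf and Cxcr2 were well above background on no array. The arrays numbered 1 had 64.0%, 62.3% and 63.2% of spots well above background, among the higher shares, with the RV array numbered 3 at 63.4%. The part of this share in the Lcn2 levels was not tested. The nearest patterns were those of Ano4, a membrane scramblase, at 0.17, Tfrc, the transferrin receptor, at 0.19 and Ddit4, an inhibitor of mTORC1, at 0.19, beside 0.43 for Lcn2 around its own mean. The promoter window of Lcn2 is shown as that of the member that followed the replicate number, with its 1 C/EBP match in capitals, beginning 216 bases before the start:
Lcn2, chr2:32387740-32387989, minus strand: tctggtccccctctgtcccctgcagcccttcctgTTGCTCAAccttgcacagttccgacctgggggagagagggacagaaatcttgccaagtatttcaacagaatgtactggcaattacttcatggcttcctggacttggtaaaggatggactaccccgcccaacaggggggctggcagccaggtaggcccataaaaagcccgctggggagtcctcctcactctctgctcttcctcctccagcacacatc
No letters of the other 3 motifs were found in it.

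**Figure D5:**
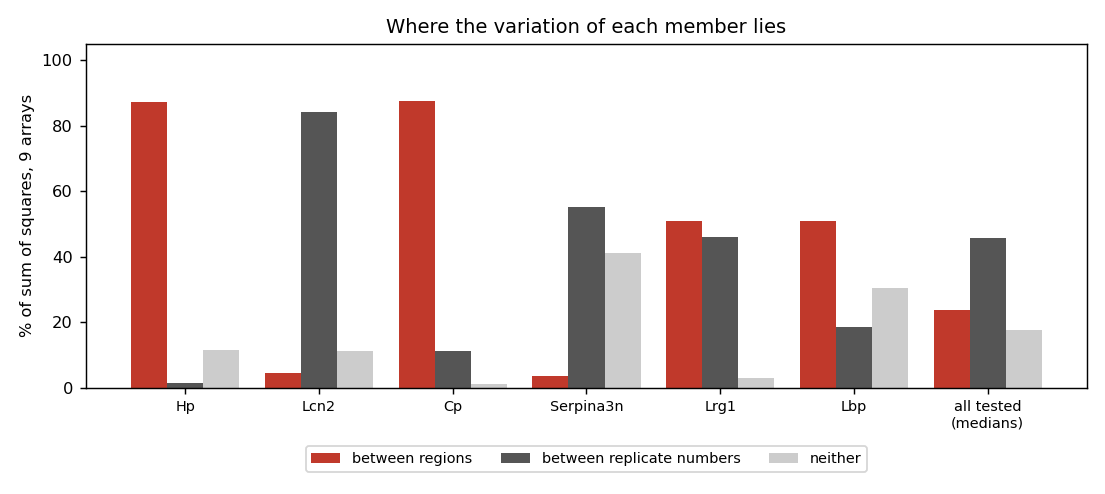
Percent of the sum of squares (vertical axis) between regions, between replicate numbers and in neither, over the 9 arrays numbered 1 to 3, for the 6 tested genes and as medians of all tested probes (horizontal axis). Hp and Cp varied mostly between regions, Lcn2 mostly between replicate numbers, and Lrg1 nearly evenly between both.

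Serpina3n, an inhibitor of serine proteases, stood apart on a single array. Its level was -0.56, -0.33, -0.74 and -0.38 in RV, -1.01, 0.93 and -1.54 in LV, and -0.39, -0.59 and -1.49 in the septum. The LV array numbered 2 was the highest of all 10, and the other LV arrays were among the 3 lowest. RV and LV differed by 0.03 (SE 0.51, adjusted p = 0.981), with a 95% interval from -1.11 to 1.18. Without that LV array the difference was 0.77, the highest of the fits that left out 1 array. RV differed from the septum by 0.32 (SE 0.51, adjusted p = 0.853) and the septum from LV by -0.28. The nearest patterns, Tspan32 at 0.33, Unc13d at 0.34 and Shroom1 at 0.37, compare with 0.66 for Serpina3n around its own mean. The Serpina3 genes are a family of near-identical copies in mouse, and a probe may bind RNA of more than 1 of them. Of its relatives, Serpina3h, Serpina3m, Serpina3c and Serpina3i were called in no pair of regions.

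Lrg1, the leucine-rich glycoprotein of vessels, was lowest on the arrays numbered 1 in each region. Its level was 3.94, 4.04, 4.24 and 4.29 in RV, 4.25, 4.38 and 4.50 in LV, and 3.98, 4.24 and 4.32 in the septum. RV lay below LV at each of the 3 shared numbers, although the groups as a whole overlapped. RV and LV differed by -0.25 (SE 0.12, adjusted p = 0.278), which was no call. A fit that blocked on the replicate number gave -0.31 (adjusted p = 0.0212), which was a call, in a fit that called 14.9% of all tested probes. Blocking on the slide gave -0.29 (adjusted p = 0.0293), also a call, with 17.6% of all probes called, and the differences within the slides were -0.33 and -0.24. RV differed from the septum by -0.06 (adjusted p = 0.890) and the septum from LV by -0.20. With the replicate block, 2 of the 5 members, Cp and Lrg1, were called between RV and LV. The endothelial list had a mean level between 3.10 and 3.36 in RV, between 2.98 and 3.29 in LV and between 2.98 and 3.25 in the septum. Its median RV to LV difference was -0.04 over its 10 genes. In each comparison with RV 1 of the 10 was called higher in RV, beside 3.86% of all tested probes called against LV and 2.08% against the septum. The part of this list in the Lrg1 levels was not tested. Among the nearest patterns were those of Esrra, a nuclear receptor of energy metabolism, and Pabpc4, a poly(A)-binding protein, each at 0.04, beside 0.17 for Lrg1 around its own mean.

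Lbp, which carries lipopolysaccharide, was on average higher in RV without passing the test. Its level was -0.84, -0.55, -0.25 and -0.58 in RV, -1.17, -0.75 and -1.12 in LV, and -0.79, -0.66 and -0.92 in the septum. The RV array numbered 1 lay below the LV array numbered 2, and the regions overlapped. RV and LV differed by 0.46 (SE 0.15, adjusted p = 0.132), with a 95% interval from 0.12 to 0.79 that is not adjusted for the number of probes. Within the slides this difference was 0.26 and 0.70. It was called only where the replicate number was a random block (adjusted p = 0.0330), a fit that called 19.2% of all tested probes. RV differed from the septum by 0.23 (adjusted p = 0.559) and the septum from LV by 0.22. The nearest patterns were those of Pcolce, an enhancer of procollagen processing, at 0.10, Trnp1, a nuclear protein, at 0.11 and Vps37d, a subunit of ESCRT-I, at 0.11, beside 0.26 for Lbp around its own mean. The mean of the 10 fibroblast genes was between 3.38 and 3.98 in RV. It was between 2.85 and 3.07 in LV and between 3.20 and 3.37 in the septum. Of the 10 fibroblast genes, 4 were called higher in RV than in LV, beside 3.86% of all tested probes called. Against the septum 1 of the 10 was called higher in RV, beside 2.08%. The part of these genes in the Lbp levels was not tested.

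Saa3 and Orm1 were well above background on the same 4 of 10 arrays, which were the RV arrays numbered 1, 3 and 4 and the septum array numbered 1. These 4 were also among the 5 arrays with the highest Hp, which included the RV array numbered 2. They were also among the 5 arrays with the highest share of spots well above background, which included the LV array numbered 1. Their shares were 64.0%, 63.4% and 59.4% in RV and 63.2% in the septum. The lowest level well above background was -3.33 and -3.51 on the LV arrays numbered 2 and 3. The part of these limits in the shared detection was not tested. Saa3, the serum amyloid A of macrophages and fat, stood at -2.82, -3.73, -3.08 and -1.40 in RV, -4.47, -3.15 and -4.49 in LV, and -2.95, -4.22 and -5.49 in the septum. Orm1, the acid glycoprotein, stood at -3.44, -5.06, -2.79 and -3.87 in RV, -5.43, -5.57 and -5.71 in LV, and -4.14, -5.18 and -5.71 in the septum. Both were not well above background on any LV array, and the RV array numbered 2 was dim for both. Because 1 of the 4 RV arrays and all LV arrays were dim, no fold is given for either gene. The measured means of Saa3 were -2.76 ± 0.98 (SD, n = 4) in RV against -4.04 ± 0.77 (SD, n = 3) for LV, and the RV array numbered 2 lay below the LV array numbered 2. With no filter on dim probes, the RV to LV difference was 1.78 for Orm1 (adjusted p = 0.251) and 1.28 for Saa3 (adjusted p = 0.526), and neither was called. Orm1 has near-identical neighbours, Orm2 and Orm3, which were too dim to be tested.

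Hpx, the haem-binding hemopexin, was well above background on 1 array, the RV array numbered 1, at -3.60. The other 9 arrays read between -4.97 and -3.93 and were not well above background. No difference between regions was measurable for it. The promoter window of Saa3, shown as that of a dim member measured mostly in RV, held 4 C/EBP matches, beginning 216, 191, 129 and 99 bases before the start, marked in capitals:
Saa3, chr7:46715677-46715926, minus strand: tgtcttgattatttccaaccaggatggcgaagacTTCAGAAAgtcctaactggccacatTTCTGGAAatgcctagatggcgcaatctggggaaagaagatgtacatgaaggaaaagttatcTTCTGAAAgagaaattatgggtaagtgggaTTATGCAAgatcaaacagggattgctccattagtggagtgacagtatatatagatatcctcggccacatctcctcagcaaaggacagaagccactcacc
It held no letters of the other 3 motifs. The windows of Hpx and Serpina3n held 2 C/EBP matches each, that of Lrg1 held none of them and 1 of the interleukin-6 letters, and that of Serpina3n also held 1 of the NF-kB letters.

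Other positive acute-phase genes, those that rise in the response, were mostly dim. Of 34 listed, 33 were on the array and 16 were tested. Of the 16, 2 were called higher and 0 lower in RV than in LV, beside 3.86% of all tested probes called. Between RV and septum 0 were called, beside 2.08%. The median RV to LV difference was 0.14, beside -0.05 over all tested genes. The 2 called genes were both inter-alpha-trypsin inhibitor heavy chains. The RV mean of Itih4 was 1.57 ± 0.88 (SD, n = 4) and its LV mean -0.72 ± 0.19 (SD, n = 3), and RV exceeded LV by 2.29 (SE 0.47, adjusted p = 0.0301). The RV to septum difference of Itih4 was 1.82 (adjusted p = 0.0942). Itih4 was higher on the second slide in RV, at 2.59 and 2.0, than on the first, at 0.81 and 0.87. No LV array read Itih3 well above background, while each of the 4 RV arrays did, and it was at least 1.22-fold higher in RV, with means of -3.47 and -4.92. Such a bound sets the RV mean against the lowest level that a probe well above background reached on each dim array, or the probe's own level where that was higher. Itih3 entered the test through its RV arrays alone, where it was high, so its call is no support for a difference of the list. Itih3 was called in 9 and Itih4 in 15 of the 23 alternatives. Saa2, Saa4, Crp, Fgb, Fgg and A2m were well above background on no array. Fgl1, a fibrinogen-like protein, had the largest fall, at -0.54 (adjusted p = 0.133), and Serpina1a the largest fall from septum to RV, at -0.82 (adjusted p = 0.282), and neither passed the test.

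Among negative acute-phase genes, those that fall in the response, transferrin, the retinol carrier and fetuin-A were higher in RV than in LV. Of 10 listed, 4 were tested. In RV 3 of the 4 were called higher and 0 lower than in LV, beside 3.86% of all tested probes called. The median RV to LV difference of the 4 was 1.40, beside -0.05 over all tested genes. Between RV and septum 1 of the 4 was called, beside 2.08% of all tested probes. Trf, the iron carrier transferrin, had levels of 4.61, 4.56, 4.39 and 4.47 in RV, 3.52, 3.75 and 3.63 in LV and 3.68, 3.72 and 3.67 in the septum. RV exceeded both other regions on every array, by 0.87 over LV (SE 0.08, adjusted p = 0.0024) and by 0.82 over the septum (SE 0.08, adjusted p = 0.00238). Rbp4, the retinol carrier, exceeded LV by 3.20 (SE 0.37, adjusted p = 0.00377) and the septum by 1.66 (adjusted p = 0.0584), with RV, septum and LV in the order of Hp. Ahsg, fetuin-A, exceeded LV by 1.93 (SE 0.30, adjusted p = 0.00954). Its difference from the septum was 0.75 (adjusted p = 0.290), with overlapping arrays. Igf1, insulin-like growth factor 1, differed by 0.57 (adjusted p = 0.173) and was not called. The RV to LV calls of Trf, Rbp4 and Ahsg each held in 22 of 23 alternatives. The part of white adipocytes and mesothelium, whose counts are given with Hp, was not tested in these values.

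Among the inducers and signal carriers of the response, 1 gene was called. Of 35 listed, 28 were tested, and 1 was called higher and 0 lower in RV than in LV, with the same counts between RV and septum, beside 3.86% and 2.08% of all tested probes called. The called gene was Cebpa, a C/EBP factor of liver and fat, which exceeded LV by 0.69 (SE 0.12, adjusted p = 0.0165) and the septum by 0.65 (SE 0.12, adjusted p = 0.0286). The call of Cebpa held in 20 of 23 alternatives against LV and in 14 of 23 against the septum. Its level was between -1.80 and -1.57 in RV and between -2.67 and -2.23 in the other regions. Il6, Il1a, Osm and Hnf4a were among those well above background on no array. Cebpb, a C/EBP factor that interleukin-6 induces, had the largest fall, at -0.21 from LV (adjusted p = 0.347) and -0.18 from the septum (adjusted p = 0.539), and Stat3 differed by -0.15 from LV (adjusted p = 0.297). Il6ra, the interleukin-6 receptor, differed by 0.35 (adjusted p = 0.151), and neither it nor the other 2 passed the test.

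Receptors and partners of the members included a ferroxidase that was higher in RV than in LV. Of 24 listed, 23 were tested, and 2 were called higher and 0 lower in RV than in LV, beside 3.86% of all tested probes called, and 1 was called between RV and septum, beside 2.08%. The median RV to LV difference of the list was 0.25, against -0.05 over all tested genes. Heph, a membrane ferroxidase related to Cp, exceeded LV by 0.56 (SE 0.12, adjusted p = 0.031), in that comparison the direction opposite to Cp. The RV to septum difference of Heph was 0.22 (adjusted p = 0.431), with overlapping arrays, and was not called. Tgfbr2, a TGF-beta receptor, exceeded LV by 0.42 (SE 0.09, adjusted p = 0.0388). Lrp1, a receptor for haem-bound hemopexin, had the largest RV to LV rise among genes measured in both regions, at 0.60 (adjusted p = 0.20), and was not called. Heph was called in 11 and Tgfbr2 in 9 of the 23 alternatives. Lrp2, the receptor megalin, which takes up Lcn2, was well above background on each of the 4 RV arrays but on none of the septum, and it was at least 3.28-fold higher in RV than in the septum. Lrp2 entered the test through its RV arrays alone, where it was high, so its call between RV and septum is given with no weight. In that comparison 11 of 13 mesothelial genes were called higher in RV, a count also given with no weight, and their part in the Lrp2 value was not tested. Cd163, the macrophage receptor for haptoglobin and haemoglobin, had levels of 1.30, 1.52, 1.29 and 1.43 in RV, 0.76, 1.20 and 0.89 in LV, and 0.61, 1.06 and 0.49 in the septum. No RV array of Cd163 overlapped the other regions, as for 19.1% of all tested probes between RV and LV and 13.7% between RV and septum. RV exceeded LV by 0.44 (SE 0.15, adjusted p = 0.148) and the septum by 0.66 (SE 0.15, adjusted p = 0.0648), and neither passed the test. Tlr4, the receptor for lipopolysaccharide, had the largest fall in both, at -0.33 from LV (adjusted p = 0.226) and -0.41 from the septum (adjusted p = 0.206), and was not called.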

How the data were processed

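Cy3-labelled RNA of 10 heart pieces (4 RV, 3 LV and 3 septum) was measured on Agilent arrays. Per the file headers, the authors scanned them with Agilent Feature Extraction 11.5.1.1, which wrote the background-corrected processed intensity of each spot, and the array design carries mm9 annotation. The deposited value table holds log2 intensity relative to the 75th percentile of each array, and 99.97% of its values lay within 0.05 of those recomputed here, so its scale, centring and direction are known. Control and outlier spots were left out, spots of a probe were averaged, and log2 processed signals were set to 0 at each array's 75th percentile. Of 56605 probes, 32994 were named by matching their accession to RefSeq genes (GRCm38.p6), and 30234 that were well above background on all arrays of at least 1 region were tested.

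limma 3.58.1 in R 4.3.3 fitted 1 mean per region over all 10 arrays, with Benjamini-Hochberg adjustment over all tested probes and calls at an adjusted p below 0.05. It was tested on simulated data. Other scalings, backgrounds and filters, blocks for slide and replicate number, each slide alone and each array left out were alternatives. So was an analysis of variance per probe, with pairs compared by Tukey's HSD, under a stricter rule than the methods state. A pair was called only where the probe's overall p, adjusted over all tested probes, was also below 0.05. The methods name no adjustment over probes, and their rule without it was not run. The background alternative used median signals because the scanner files used here hold no mean signal, a choice made after seeing the files. Slides were read from the array barcodes. The members, gene lists and tests were chosen with earlier results of these data known. The text names all members, each called gene of the lists, those with the largest changes among genes measured in both regions, and the nearest patterns, except a few genes that are not reported here. Stat3, Igf1, Il6ra, Mt1, Mt2, Socs3 and the Serpina3 relatives were named after their values were seen.

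Replicate numbers come from the sample titles. Deviations from the group means correlated between same-numbered arrays at r from 0.36 to 0.64 in all 9 pairs. Other pairs correlated at 0.09 to 0.58 within a slide and at -0.56 to -0.21 between slides. The RV array numbered 4 correlated with the LV and septum arrays numbered 3 at 0.57 and 0.58, and the RV array numbered 3 at 0.43 and 0.44. Pairing by number was thus not told apart from the slide. The numbers were used only as blocks in alternatives, and the main fit had no block. The number of arrays limits the precision.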

Additional observations from a re-analysis of the deposited data

Results flagged for a closer look

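In RV, where 4 arrays allow a check for a single distant array, 13 probes were checked, and 2 of them, both of Cp, had one. On the second brightest probe of Cp the RV array numbered 4, at 1.16, was the highest, and its gap to the next array was 0.871 of the range of the group, above Dixon's critical value for 4 values. On the third brightest probe the RV array numbered 1, at -0.57, was the lowest, with a gap of 0.912 of the range. Chance gives such a gap in about 1 of 20 groups. The 2 arrays differ, and on both probes all RV arrays lay below all LV and septum arrays.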

How the results depend on the processing

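Each result was recomputed under 23 alternatives, or 19 for the dim genes. The count of members called between RV and LV, 1 of 5, became 0 with each of 3 other scalings (quantile, median, or the percentile over probes detected on all arrays), no filter, slide 1 alone, slide 2 alone and the analysis of variance, and was 0 to 0 with each array left out in turn. It was 2 with a slide block and 2 with a replicate block, which added Lrg1, and 3 with a random replicate block, which also added Lbp. The count between RV and septum, 1 of 5, became 0 with scaling by the median, no filter, slide 1 alone, slide 2 alone and the analysis of variance, and was 0 to 1 with each array left out. Between septum and LV it stayed at 0. No other call of a member changed with the replicate block. Over all probes, RV to LV calls numbered 1167, but 684 with median scaling, 269 with no filter, 331 on slide 2 alone, 4512 with a replicate block, 5331 with a slide block and 775 with the analysis of variance, and between 390 and 980 with each array left out. RV to septum calls numbered 628, but 112 with no filter, 171 on slide 2 alone, 2154 with a replicate block and 2643 with a slide block, and between 118 and 542 with each array left out. Calls higher in RV made up 59.7% of those against LV and 75.9% when scaled by probes detected on all arrays, and 58.0% of those against septum and 73.0% when scaled by the median. Septum to LV calls numbered 0 to 3 with each array left out, 14 with a slide block and 69 with a random replicate block. Slide 1 alone gave 821 calls between RV and LV and 478 between RV and septum. Each slide alone holds 4 to 6 arrays, which limits its precision. The cause of the changed counts was not tested.

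Cp between RV and LV ranged from -0.56 to -0.40 and kept its sign. Differences near 0 changed sign. On slide 2 alone Lcn2 gave 0.0074 for RV against LV and 0.11 for RV against septum, and Serpina3n gave 0.051 for septum against LV. Serpina3n between RV and LV was -0.41 on slide 1 alone and -0.0070 with the replicate block. With each array left out, Serpina3n ran from -0.47 to 0.77 for RV against LV, from -0.015 to 0.53 for RV against septum and from -0.78 to 0.45 for septum against LV. Lcn2 ran from -0.44 to 0.090 for RV against septum and from -0.42 to 0.18 for septum against LV. Cp ran from -0.0086 to 0.15 for septum against LV, and Lrg1 from -0.16 to 0.013 for RV against septum. Depth in an array is signal over background, and it left Hpx, Saa3 and Orm1 without a test.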

Other observations

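The level of Mt2, a zinc-binding metallothionein of the positive acute-phase list, differed between the slides in each region. It read 6.05 and 6.59 in RV on the first slide and 5.69 and 5.34 on the second. In LV Mt2 read 6.23 and 6.80 on the first slide and 5.47 on the second, and in the septum 5.94 and 6.59 against 5.10. Every array of the first slide lay above every array of the second. Mt2 was named after its values were seen, and the share of all tested probes that part by slide was not counted. Deviations from the group means over the tested probes correlated at -0.56 to -0.21 between slides. The separation is thus not shown to be particular to Mt2. Mt2 differed by -0.25 between RV and LV (adjusted p = 0.802) and its relative Mt1 by -0.15 (adjusted p = 0.709), and neither was called.

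Socs3, the inhibitor that interleukin-6 signalling induces, read -0.38, 0.42 and 1.41 in LV. In the septum Socs3 read -0.30, 0.19 and 0.42, and in RV 0.01, 0.59, 0.44 and 0.70. In every region the array numbered 1 was the lowest of Socs3, and it was the highest of Lcn2. No test of this was run.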
